A study of Homo sapiens with 9 samples.

Results

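The integrin subunits and the proteins that tie them to actin were followed in U2OS, a human osteosarcoma cell line, after RNA interference against the nuclear deubiquitinase BAP1. A gene belonged to the set when its symbol was that of an integrin alpha or beta chain or one of 16 named focal adhesion components: PXN, VCL, ZYX, TLN1, TLN2, PTK2, ILK, PARVA, FERMT1, FERMT2, ACTN1, ACTN4, TNS1, TNS3, LIMS1 and BCAR1. This gave 41 of the 19775 genes measured, 25 integrin chains and the 16 others, each read by its brightest probe set on average. ITGB6 was not analysed here. The rule used names and mean levels, not differences between groups. The members were, however, chosen with earlier results of these data known.

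Expression was measured on 9 arrays. Cells of group shControl (3 arrays) received a plasmid for a short hairpin RNA that serves as a control, and those of groups shBAP1 #1 and shBAP1 #2 (3 arrays each) a plasmid for either of the hairpins against BAP1. All groups, controls included, were transfected with lipid, kept in puromycin and then arrested between G1 and S phase by a double thymidine block. Nothing in the labels says that replicates came from separate cultures, so the error behind each p-value is that between these arrays and may be technical only. The level of BAP1 itself was not analysed here, so the labels were not checked by it. The design asks which transcripts change when BAP1 is targeted, so changes shared by both hairpins are given first.

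Values are log2 expression after robust multi-array averaging (RMA), which equalises the probe intensities of the arrays, so a change is relative to the other genes. The lowest correlation between arrays of a group, across probe sets, was 0.996 in shControl, 0.995 in shBAP1 #1 and 0.995 in shBAP1 #2, and array medians lay between 5.40 and 5.45. The number of arrays limits the precision. The log2 difference between 3' and 5' actin probe sets, which reflects how intact the RNA was, was 0.47 to 0.51 in shControl, 0.39 to 0.41 in shBAP1 #1 and 0.39 to 0.46 in shBAP1 #2. It separated the controls from every shBAP1 array, and its part in the changes seen with both hairpins was not tested. Of 8 bone and mesenchymal markers, 5 (RUNX2, SPARC, VIM, COL1A1 and CDH2) exceeded 5.44, the median probe set mean, and the mean level of this marker list was 8.24 to 8.28 in shControl, 8.63 to 8.77 in shBAP1 #1 and 8.43 to 8.55 in shBAP1 #2. The mean level of 6 epithelial markers ran the other way, at 7.13 to 7.20, 6.77 to 6.82 and 6.59 to 6.73, with EPCAM, KRT8 and KRT18 above 5.44. Their part was not tested either. Of 9 leukocyte markers, CD79A, CSF1R and NCAM1 lay above 5.44 and PTPRC, the pan-leukocyte phosphatase, did not. The list's mean level was 5.16 to 5.22 in shControl, 5.16 to 5.27 in shBAP1 #1 and 5.23 to 5.27 in shBAP1 #2. Of 5 endothelial markers, PECAM1 alone lay above it, and their mean level was 5.05 to 5.08, 4.81 to 4.93 and 4.91 to 4.92. In bulk RNA of a single cell line, fewer cells expressing a marker and less of its RNA per cell cannot be told apart.

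Integrins are heterodimers of an alpha and a beta chain that span the plasma membrane and bind matrix proteins or receptors on other cells. Talins and kindlins bind the beta tail and switch the receptor to its active state, and the clustered receptors recruit focal adhesion kinase, paxillin and p130Cas for signalling and vinculin, zyxin, alpha-actinins and tensins to hold actin. Bone-forming cells and osteosarcoma cells attach through beta 1 and alpha V receptors to collagen, fibronectin and other bone matrix proteins.

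Few changes were shared by the hairpins, and more members were called with shBAP1 #2. With shBAP1 #2, 14 of 41 members rose (34.1%, against 16.9% of all genes) and 7 fell (17.1%, against 16.5%), whereas with shBAP1 #1 5 rose (12.2%, against 13%) and 6 fell (14.6%, against 12.6%) (limma, Benjamini-Hochberg adjusted p below 0.05 over all genes). Compared directly, 16 members were higher with shBAP1 #2 than with shBAP1 #1 (39%, against 17.1% of all genes) and 4 lower (9.76%, against 17.6%). PXN and TLN2 rose with both hairpins and PTK2 and TNS3 fell with both, which at 4.88% of members each way is near the background of 6.22% higher and 5.49% lower. FERMT2, ITGB1, ITGA3 and ITGB5 moved in opposite directions (9.76%, against 3.44% of all genes). Single arrays moved some of these counts: the 5 members higher with shBAP1 #1 became 3 without shControl replicate 1, the 2 higher with both became 5 without shControl replicate 2, and the 4 with opposite directions became 2 without shControl replicate 1, 2 or 3, shBAP1 #1 replicate 1 or shBAP1 #2 replicate 2.

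The share called depends on brightness, and 33 of the 41 members had a mean of 5.44 or more. Among the 12748 genes that bright, 24% rose with shBAP1 #2 and 24.3% were higher with it than with shBAP1 #1, where the bright members gave 14 (42.4%) and 15 (45.5%). Of the bright members, 6 fell with shBAP1 #2 (18.2%, against 23.8%) and 3 were lower with it than with shBAP1 #1 (9.09%, against 25.1%). With shBAP1 #1, 5 rose (15.2%, against 18.5%) and 6 fell (18.2%, against 18.4%). With both hairpins 2 rose and 2 fell (6.06% each, against 9.23% and 7.99%), and 4 moved in opposite directions (12.1%, against 5.12%). The median log2 change of the 41 members was -0.0033 with shBAP1 #1 (all genes 0.0074), 0.16 with shBAP1 #2 (all genes 0.016) and 0.14 for shBAP1 #2 over shBAP1 #1 (all genes 0.0057). The comparisons share arrays, so their values stand side by side and are not independent.

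**Figure D1:**
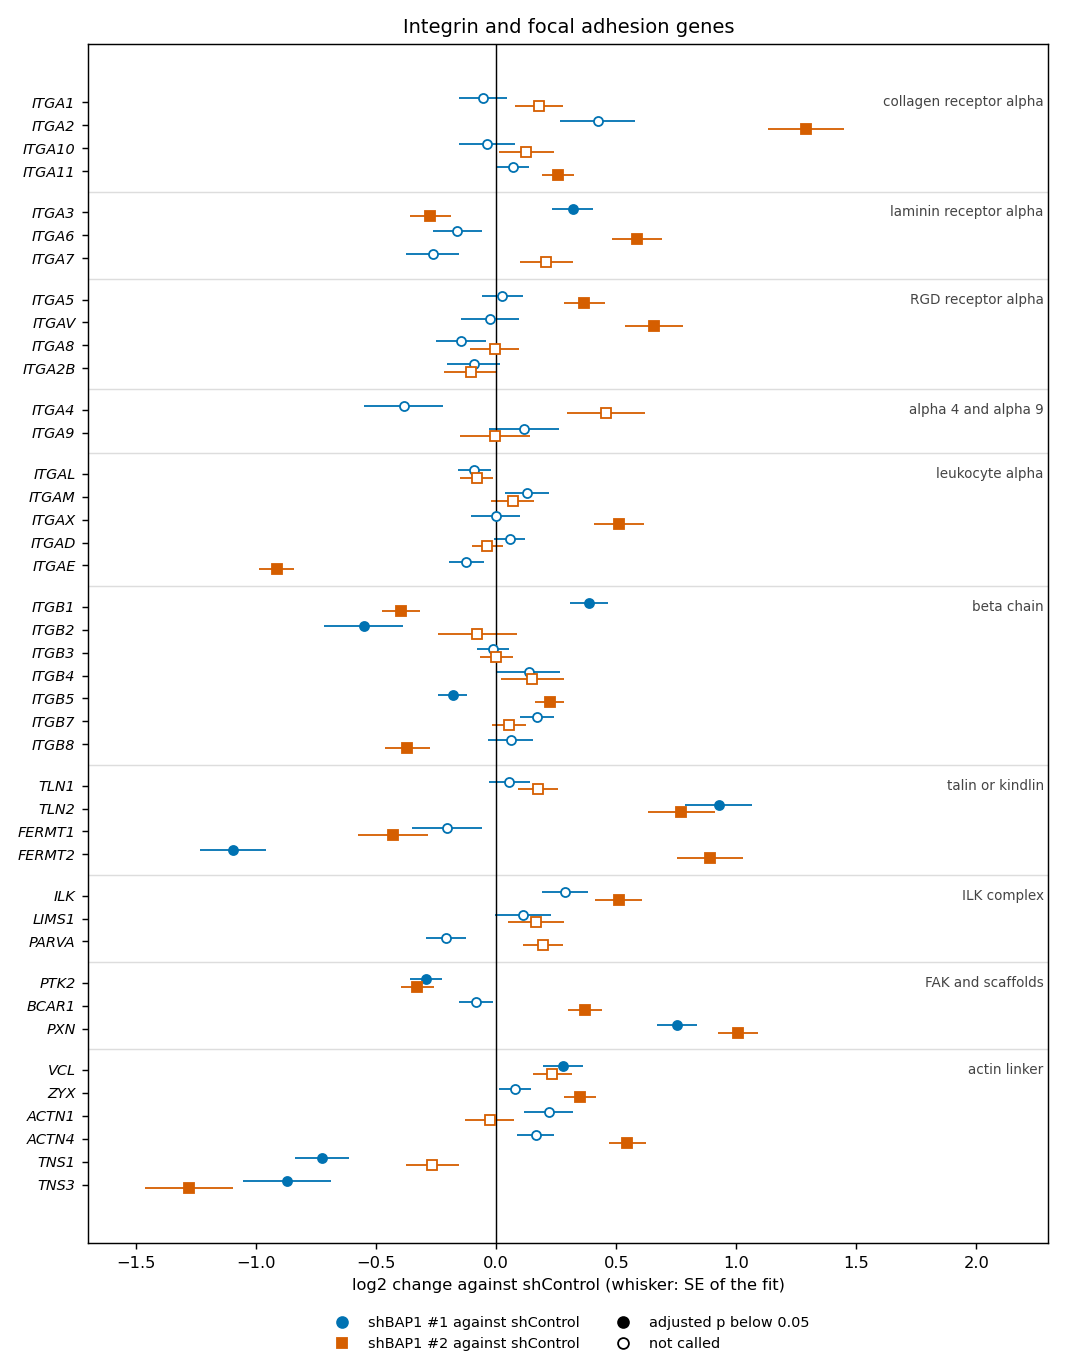
Log2 change of each of the 41 members against shControl (horizontal axis), blue circles for shBAP1 #1 and orange squares for shBAP1 #2, n = 3 arrays per group; whiskers are the SE of the fit and filled symbols have an adjusted p below 0.05. Filled squares outnumber filled circles (21 against 11), and for FERMT2, ITGB1, ITGA3 and ITGB5 the filled symbols lie on opposite sides of 0.

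Promoter sequence is shown for 4 members whose values the results turn on, the pair that rose with both hairpins and the leading pair that moved in opposite directions. Each line gives the 250 bases before the RefSeq gene start on GRCh38.p14, 5' to 3' on the gene's own strand. Capitals mark matches, on either strand, to GGGCGG (the GC box of Sp1 factors), CATTCC (the core of TEAD sites), CCATNTT (the core of sites of YY1, a known BAP1 partner) or TGANTCA (AP-1). A match is a description of letters, not a site shown to be used.
PXN, chr12:120265731-120265980, minus strand: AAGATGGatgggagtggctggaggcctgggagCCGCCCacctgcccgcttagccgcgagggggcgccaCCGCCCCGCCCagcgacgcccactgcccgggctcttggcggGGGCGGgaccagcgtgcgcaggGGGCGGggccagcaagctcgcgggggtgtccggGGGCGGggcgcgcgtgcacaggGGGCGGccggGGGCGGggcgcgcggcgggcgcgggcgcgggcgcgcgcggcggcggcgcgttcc
TLN2, chr15:62390300-62390549, plus strand: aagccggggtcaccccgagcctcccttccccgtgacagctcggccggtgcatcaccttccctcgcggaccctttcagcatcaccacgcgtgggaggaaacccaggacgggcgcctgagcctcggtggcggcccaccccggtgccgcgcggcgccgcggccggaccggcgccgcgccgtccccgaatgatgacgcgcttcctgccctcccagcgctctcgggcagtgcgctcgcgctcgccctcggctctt
FERMT2, chr14:52951051-52951300, minus strand: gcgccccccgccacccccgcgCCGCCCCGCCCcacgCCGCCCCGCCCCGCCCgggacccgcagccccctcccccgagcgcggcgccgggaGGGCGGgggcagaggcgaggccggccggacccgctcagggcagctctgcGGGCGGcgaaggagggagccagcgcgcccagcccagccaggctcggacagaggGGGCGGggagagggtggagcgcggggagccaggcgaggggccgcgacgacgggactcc
ITGB1, chr10:32958231-32958480, minus strand: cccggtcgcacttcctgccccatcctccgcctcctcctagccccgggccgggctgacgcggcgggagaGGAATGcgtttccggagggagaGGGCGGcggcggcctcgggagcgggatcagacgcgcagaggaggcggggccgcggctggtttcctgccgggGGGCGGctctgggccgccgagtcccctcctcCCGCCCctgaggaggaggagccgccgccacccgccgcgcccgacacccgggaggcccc

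These windows are rich in G and C, at 83.6% for PXN, 74.4% for TLN2, 84.4% for FERMT2 and 78.4% for ITGB1. GC boxes numbered 8 in PXN, 8 in FERMT2 and 3 in ITGB1, some of them overlapping, and TLN2 held 0 matches to the motifs searched. The YY1 core of PXN lay 250 bases before the start, and the TEAD core of ITGB1 182 bases before it. Of 29 members listed in the RefSeq promoter table, 17 held a GC box (42.3% of all 27305 promoters did), 4 a TEAD core (11.9%), 2 a YY1 core (11.7%), 2 an AP-1 match (6.6%) and 0 a CArG box, the serum response element motif (1.14%).

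PXN, the paxillin scaffold that docks kinases and adaptors at adhesions, rose with both hairpins. It read 7.61, 7.64 and 7.88 on the control arrays, 8.51, 8.51 and 8.37 with shBAP1 #1 and 8.71, 8.68 and 8.76 with shBAP1 #2. The 3 groups did not overlap. The log2 change was 0.75 ± 0.08 with shBAP1 #1 (SE, n = 3, adjusted p = 9.95e-05) and 1.01 ± 0.08 with shBAP1 #2 (adjusted p = 1.67e-05). Its other probe set, which is dimmer, gave 0.54 and 1.00 and was called with both. The further rise of shBAP1 #2 over shBAP1 #1, 0.26 ± 0.08 (adjusted p = 0.0352), was lost without any one of the 6 shBAP1 arrays, with adjusted p from 0.0548 to 0.12. It was also lost with the replicate number as a block.

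TLN2 encodes talin-2, which links integrin beta tails to actin. Control arrays read 6.92, 6.73 and 7.39, shBAP1 #1 arrays 8.04, 7.92 and 7.85, and shBAP1 #2 arrays 7.73, 7.82 and 7.80. Every shBAP1 array lay above every control array, and the control arrays were the most spread (SD 0.34, n = 3). The change was 0.93 ± 0.14 with shBAP1 #1 (SE, adjusted p = 0.000654) and 0.77 ± 0.14 with shBAP1 #2 (adjusted p = 0.00145). A second bright probe set gave 0.82 and 0.63, called with both. The shBAP1 #2 arrays of TLN2 all lay below the shBAP1 #1 arrays, but this difference was not called (-0.15, adjusted p = 0.455).

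TLN1, the other talin, read 7.85 to 7.94 in the controls, 7.84 to 8.04 with shBAP1 #1 and 7.93 to 8.18 with shBAP1 #2, overlapping throughout. Its changes of 0.05 and 0.17 were not called. A dimmer TLN1 probe set (mean 7.05) was called higher with both hairpins, at 1.04 and 0.46, so the probe sets of TLN1 differ on whether it rose.

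PTK2 encodes focal adhesion kinase, the tyrosine kinase activated when integrins engage. Control arrays read 10.49, 10.44 and 10.50, shBAP1 #1 arrays 10.14, 10.14 and 10.27, and shBAP1 #2 arrays 10.08, 10.15 and 10.22. All 6 shBAP1 arrays lay below the controls. The changes were small, -0.29 ± 0.07 (SE, adjusted p = 0.00793) and -0.33 ± 0.07 (adjusted p = 0.00305). The next probe set gave -0.21 and -0.22 and was called with shBAP1 #2, while another was called higher with shBAP1 #2, at 0.38. With the mean of all 4 probe sets PTK2 was not called with either hairpin (-0.16, adjusted p = 0.279, and -0.05, adjusted p = 0.776).

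TNS3, a member of the tensins, which join integrin tails to actin, fell with both hairpins, and with shBAP1 #2 no other member fell as far. It stood at 8.83, 8.61 and 8.65 in the controls, at 7.65, 7.61 and 8.21 with shBAP1 #1 and at 7.79, 7.28 and 7.18 with shBAP1 #2. No shBAP1 array reached the controls, and 1 array of each hairpin lay apart from the others of its group, nearer to the controls. The change was -0.87 ± 0.18 (SE, adjusted p = 0.00503) and -1.28 ± 0.18 (adjusted p = 0.000358). Its other probe set, with a mean of 4.06, below the median of all probe sets, was called higher with shBAP1 #2 at 0.34. With the mean of both probe sets the changes of TNS3 were -0.37 (adjusted p = 0.0391) and -0.47 (adjusted p = 0.00988).

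VCL, which encodes vinculin, the linker between talin and actin, came close to this group. It read 9.76, 9.88 and 9.58 in the controls, 9.97, 10.11 and 9.98 with shBAP1 #1 and 9.95, 9.98 and 9.99 with shBAP1 #2. All 6 shBAP1 arrays lay above the controls. The change of VCL was 0.28 ± 0.08 with shBAP1 #1 (SE, adjusted p = 0.0297) and 0.23 ± 0.08 with shBAP1 #2 (adjusted p = 0.0509). The first call was lost without shControl replicate 1 (0.29, adjusted p = 0.0723), shControl replicate 3 (0.20, 0.102), shBAP1 #1 replicate 1 (0.30, 0.0558) or shBAP1 #1 replicate 2 (0.23, 0.109). It was also lost for VCL with the mean of all probe sets (0.16, adjusted p = 0.102) and with the 2 groups alone in the fit (0.28, adjusted p = 0.052).

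**Figure D2:**
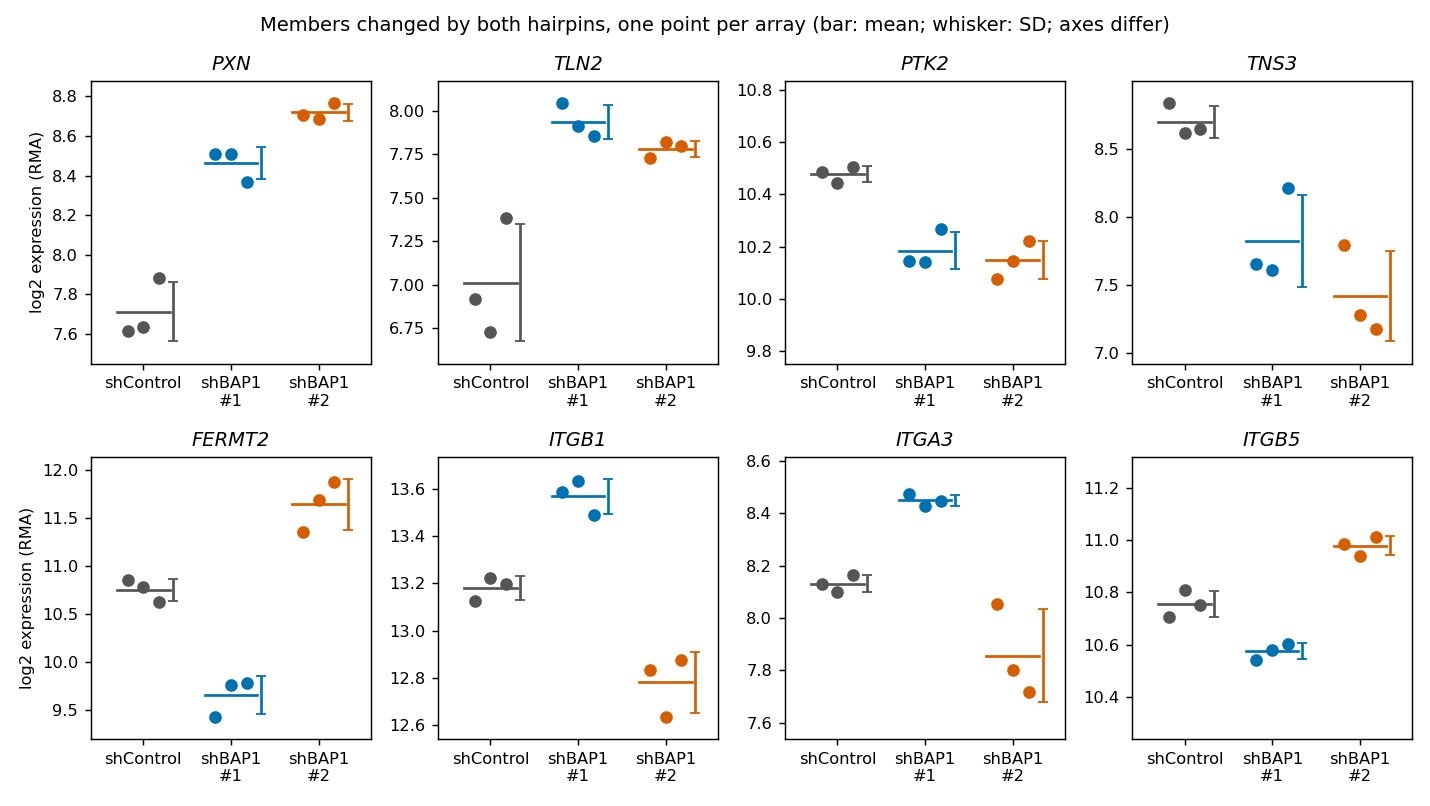
Log2 expression on each of the 9 arrays (points, in the order of replicates 1 to 3) for the members called with both hairpins; bars are group means and whiskers SD, n = 3, and each panel has its own vertical axis. In the upper row both shBAP1 groups lie on one side of the controls, and in the lower row the 2 hairpins lie on opposite sides of them.

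FERMT2 encodes kindlin-2, which with talin activates integrins by binding the beta tail. It read 10.85, 10.78 and 10.63 in the controls, 9.43, 9.76 and 9.78 with shBAP1 #1, and 11.36, 11.69 and 11.88 with shBAP1 #2. The groups were apart on every array, with the controls in the middle. FERMT2 fell by 1.10 with shBAP1 #1 (SE 0.14, n = 3, adjusted p = 0.000208) and rose by 0.89 with shBAP1 #2 (SE 0.14, adjusted p = 0.000578). The difference of 1.99 ± 0.14 between the hairpins (adjusted p = 4.49e-06) was the largest of the 41 members. Its other probe sets gave -0.25 and 0.41, and -0.50 and 0.56, with the same directions. The first of these values was not called, and the difference between hairpins was called in all 3. The mean of the FERMT2 probe sets gave -0.62 and 0.62, with a difference of 1.23, each called. FERMT1, the epithelial kindlin-1, did not follow: its changes were -0.20 (adjusted p = 0.382) and -0.43 (adjusted p = 0.0424). The fall of FERMT1 with shBAP1 #2 was lost without shControl replicates 1, 2 or 3, shBAP1 #1 replicates 2 or 3, or shBAP1 #2 replicates 2 or 3, with adjusted p from 0.0501 to 0.152. It was also lost with the 2 groups alone in the fit.

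ITGB1, the beta 1 chain shared by most collagen, laminin and fibronectin receptors, showed the reverse pattern. The controls stood at 13.12, 13.22 and 13.20, shBAP1 #1 at 13.58, 13.63 and 13.49, and shBAP1 #2 at 12.84, 12.64 and 12.88. Again no group overlapped another. ITGB1 rose by 0.39 ± 0.08 with shBAP1 #1 (SE, adjusted p = 0.00413) and fell by 0.40 with shBAP1 #2 (SE 0.08, adjusted p = 0.00256), a difference of -0.78 ± 0.08 (adjusted p = 3.21e-05). The next brightest ITGB1 probe sets, with means of 12.0 and 11.9, gave 0.49 and -0.55, and 0.53 and -0.45, each called. The 4 remaining ITGB1 probe sets had means of 3.03 to 4.27, below the median of all probe sets, and none was called. The bright ones carry suffixes for probes shared between transcripts, so leaving out such probe sets leaves ITGB1 only dim ones, the brighter of which gave changes of -0.057 and -0.010 that were not called. With the mean of all its probe sets, dim ones included, ITGB1 was called with both hairpins at 0.19 and -0.26.

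ITGA3, the alpha 3 chain that pairs with beta 1 as a laminin receptor, moved the same ways as ITGB1. It read 8.13, 8.10 and 8.16 in the controls, 8.47, 8.43 and 8.45 with shBAP1 #1 and 8.05, 7.80 and 7.72 with shBAP1 #2. The groups did not overlap, and replicate 1 of shBAP1 #2 stood nearest to the controls, as its whole array did (mean r with the controls 0.989, against 0.981 for the other arrays of that hairpin). The changes were 0.32 ± 0.08 (SE, adjusted p = 0.018) and -0.27 ± 0.08 (adjusted p = 0.0291), and the difference was -0.59 ± 0.08 (adjusted p = 0.000305). For ITGA3 the first call was lost without shControl replicate 1 (0.32, adjusted p = 0.0559), shControl replicate 2 (0.30, 0.0582) or shBAP1 #1 replicate 1 (0.31, 0.0617). The second was lost without any 1 control array (-0.29 to -0.26, adjusted p from 0.0543 to 0.082), without shBAP1 #2 replicate 2 (-0.25, 0.0977) or without shBAP1 #2 replicate 3 (-0.20, 0.114). It was also lost with the 2 groups alone in the fit (-0.27, adjusted p = 0.0598). The difference between hairpins was kept in all 17 settings in which ITGA3 was measured.

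ITGB5, whose beta 5 chain pairs with alpha V to bind vitronectin, moved as FERMT2 did but less. Control arrays read 10.71, 10.81 and 10.75, shBAP1 #1 arrays 10.54, 10.58 and 10.60, and shBAP1 #2 arrays 10.99, 10.94 and 11.01. The groups did not overlap. ITGB5 changed by -0.18 ± 0.06 (SE, adjusted p = 0.0496) and 0.22 ± 0.06 (adjusted p = 0.015), with a difference of 0.40 ± 0.06 (adjusted p = 0.000395). The fall with shBAP1 #1 was lost in 13 of 18 other settings. These included leaving out any 1 control array, any 1 shBAP1 #1 array, or shBAP1 #2 replicate 2 or 3 (-0.21 to -0.16, adjusted p from 0.0604 to 0.149). None of its 3 other probe sets was called. The ITGB5 rise with shBAP1 #2 was lost without shControl replicate 1 (0.20, adjusted p = 0.0624) and without shBAP1 #2 replicate 3 (0.21, 0.0523). With the mean of all probe sets ITGB5 changed by -0.046 (adjusted p = 0.622) and 0.11 (adjusted p = 0.15), and the difference was 0.15 (adjusted p = 0.0432). Without probe sets of shared-probe suffix the rise was 0.33 (adjusted p = 0.134) and the difference 0.35 (adjusted p = 0.113), and neither was called.

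Among the collagen-binding alpha chains, ITGA2 stood out with shBAP1 #2. ITGA2, which pairs with beta 1 as a receptor for fibrillar collagen, read 7.21, 7.64 and 7.30 in the controls, 7.48, 7.998 and 7.94 with shBAP1 #1 and 8.59, 8.55 and 8.89 with shBAP1 #2. The shBAP1 #2 arrays lay above all others, while shBAP1 #1 overlapped the controls. The changes of ITGA2 were 0.42 ± 0.16 (SE, adjusted p = 0.0788) and 1.29 ± 0.16 (adjusted p = 0.000137), the difference was 0.87 ± 0.16 (adjusted p = 0.0014), and its other probe set gave 0.34 and 0.86. ITGA11, another collagen receptor chain of mesenchymal cells, rose by 0.26 with shBAP1 #2 (adjusted p = 0.0139), and the mean of its probe sets did not pass (0.13, adjusted p = 0.111). ITGA1 and ITGA10, also collagen receptors, were dim (means of 4.03 and 4.97) and were not called.

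Of the laminin-binding chains, ITGA6 rose by 0.59 ± 0.10 with shBAP1 #2 (SE, n = 3, adjusted p = 0.00131) and changed by -0.16 with shBAP1 #1 (adjusted p = 0.323), opposite in direction to its fellow laminin receptor ITGA3. It read 9.06 to 9.23 in the controls, 8.85 to 9.23 with shBAP1 #1 and 9.63 to 9.85 with shBAP1 #2. The shBAP1 #2 arrays of ITGA6 lay above the rest, and its second probe set was called as well, at a smaller 0.30. ITGA7, the muscle laminin receptor chain, was called only between the hairpins: its changes of -0.26 (adjusted p = 0.114) and 0.21 (adjusted p = 0.188) differed by 0.47 ± 0.11 (adjusted p = 0.00628). The second ITGA7 probe set was called lower with shBAP1 #1, at -0.28.

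Of the chains that recognise the RGD motif of fibronectin and vitronectin, ITGAV and ITGA5 rose with shBAP1 #2. ITGAV, the alpha V chain, read 10.05, 10.02 and 9.87 in the controls, 9.95, 10.14 and 9.77 with shBAP1 #1 and 10.47, 10.55 and 10.88 with shBAP1 #2. All 3 shBAP1 #2 arrays lay above the other 6, and shBAP1 #1 and control values were interleaved. ITGAV rose by 0.66 ± 0.12 with shBAP1 #2 (SE, adjusted p = 0.00176), changed by -0.02 with shBAP1 #1 (adjusted p = 0.927) and differed between them by 0.68 ± 0.12 (adjusted p = 0.00126). ITGA5, the fibronectin receptor chain, rose by 0.37 ± 0.09 (adjusted p = 0.00722) with shBAP1 #2 and gave 0.03 with shBAP1 #1. ITGA8 and ITGA2B, the latter the platelet chain, changed by no more than 0.15 in size and were not called.

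ITGA4, whose product binds VCAM1 and fibronectin, was dim, with a mean of 4.92. It was called only between the hairpins, at 4.59, 4.48 and 4.45 with shBAP1 #1 and 5.75, 5.03 and 5.28 with shBAP1 #2, a difference of 0.84 ± 0.16 (SE, n = 3, adjusted p = 0.00213). The controls, at 4.68 to 5.10, lay above shBAP1 #1 and overlapped shBAP1 #2. Of the 4 ITGA4 probe sets, 3 were called for this difference. ITGA9, a receptor chain for tenascin, was dim and not called.

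Of the leukocyte alpha chains, ITGAE and ITGAX were called. ITGAE encodes the alpha E chain, which with beta 7 binds E-cadherin on epithelial cells. It read 10.65, 10.69 and 10.56 in the controls, 10.58, 10.47 and 10.47 with shBAP1 #1 and 9.82, 9.71 and 9.62 with shBAP1 #2. The shBAP1 #2 arrays lay below all others. ITGAE fell by 0.92 with shBAP1 #2 (SE 0.07, adjusted p = 1.52e-05) and changed by -0.13 with shBAP1 #1 (adjusted p = 0.28), and the difference was -0.79 ± 0.07 (adjusted p = 2.18e-05). Its partner ITGB7 changed by 0.17 and 0.05 and was not called.

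ITGAX, the alpha chain of a complement receptor, read 5.63 to 5.93 in the controls, 5.68 to 5.88 with shBAP1 #1 and 6.17 to 6.47 with shBAP1 #2, a rise of 0.51 ± 0.10 (SE, n = 3, adjusted p = 0.00299). Its second probe set gave 0.08 and was not called, and the mean of the ITGAX probe sets rose by 0.29 (adjusted p = 0.0328). The hairpins differed by 0.52 ± 0.10 for ITGAX (adjusted p = 0.00268), a call lost with that mean (0.21, adjusted p = 0.114). ITGB2, the common leukocyte beta chain, fell by 0.55 with shBAP1 #1 (SE 0.16, adjusted p = 0.0305), with arrays at 6.33, 6.25 and 6.83 against 6.81, 6.93 and 7.33 in the controls. These ranges overlap by 1 array. The ITGB2 call was lost without shControl replicate 2 (-0.60, adjusted p = 0.0525), shControl replicate 3 (-0.40, 0.116), shBAP1 #1 replicate 1 (-0.48, 0.114) or shBAP1 #1 replicate 2 (-0.44, 0.116). It was also lost with the 2 groups alone in the fit. ITGB2 was also called higher with shBAP1 #2 than with shBAP1 #1 (0.47, adjusted p = 0.0461), a call lost without shControl replicate 2, shBAP1 #1 replicates 1 or 2, or any shBAP1 #2 array (0.36 to 0.53, adjusted p from 0.0605 to 0.164). Subtracting array medians lost this difference too. ITGAL, ITGAM and ITGAD, the other leukocyte chains, were not called. A dim second probe set of ITGAM (mean 4.50) was called higher with shBAP1 #2, at 1.05.

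The remaining beta chains differed. ITGB8, which with alpha V releases active TGF-beta, fell by 0.37 with shBAP1 #2 (SE 0.09, n = 3, adjusted p = 0.0102) and gave 0.06 with shBAP1 #1. It is dim (mean 5.11), and its second probe set (mean 5.04) rose by 1.14 with shBAP1 #1 and gave -0.10 with shBAP1 #2. Another (mean 4.73) was also called higher with shBAP1 #1, at 0.52, and gave -0.10 with shBAP1 #2. The fall with shBAP1 #2 was lost with the mean of all ITGB8 probe sets (-0.13, adjusted p = 0.201). The probe sets of ITGB8 thus placed the change with different hairpins, while 3 of 5 called it lower with shBAP1 #2 than with shBAP1 #1. ITGB3, the partner of alpha V and of the platelet chain, ranged only from 5.36 to 5.54 over all 9 arrays, near the median of all probe set means, and ITGB4, the hemidesmosome beta chain, from 5.90 to 6.56. Neither was called in any comparison.

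**Figure D3:**
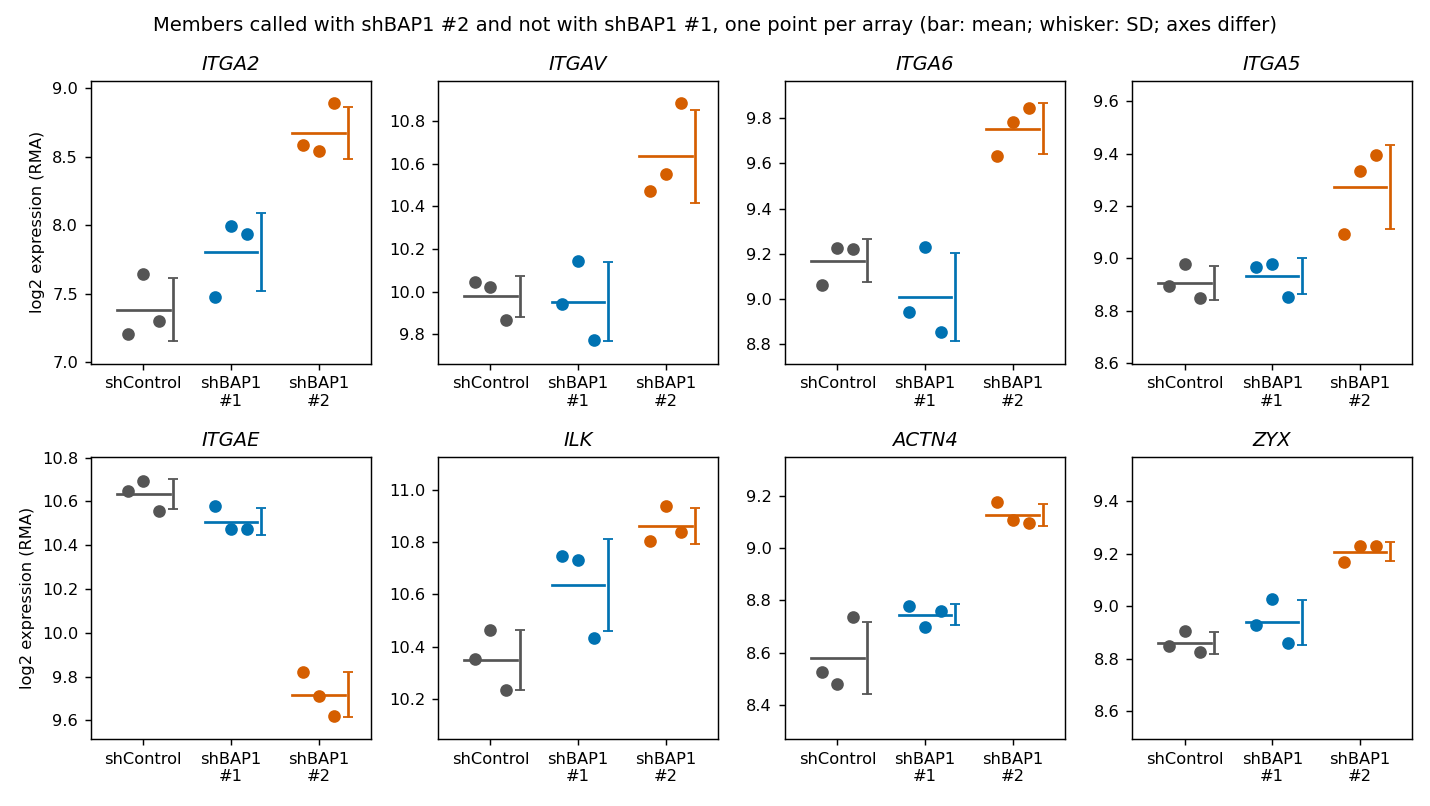
Log2 expression on each of the 9 arrays (points, in the order of replicates 1 to 3) for 8 members called against shControl with shBAP1 #2 and not with shBAP1 #1; bars are group means and whiskers SD, n = 3, and each panel has its own vertical axis. ITGA2, ITGAV, ITGA6, ITGA5, ILK, ACTN4 and ZYX lie highest with shBAP1 #2, and ITGAE lies lowest, at 9.62 to 9.82.

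Inside the cell, several links of the adhesion rose with shBAP1 #2. ILK, the pseudokinase that joins beta tails to parvins and PINCH, read 10.35, 10.46 and 10.23 in the controls, 10.74, 10.73 and 10.43 with shBAP1 #1 and 10.80, 10.94 and 10.84 with shBAP1 #2. It rose by 0.51 ± 0.10 with shBAP1 #2 (SE, adjusted p = 0.00202), and the 0.29 with shBAP1 #1 did not pass (adjusted p = 0.0532), where 1 array overlapped the controls. The difference between hairpins was not called for ILK (0.22, adjusted p = 0.105). LIMS1, which encodes PINCH1, was dim on all 3 of its probe sets (means up to 4.28) and not called.

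PARVA, the actin-binding alpha-parvin of the same complex, changed by -0.21 (adjusted p = 0.101) and 0.19 (adjusted p = 0.104) and was called between the hairpins, at 0.40 ± 0.08 (SE, n = 3, adjusted p = 0.00315). Its 7 probe sets went different ways: 1 was called higher with shBAP1 #1, and with shBAP1 #2 2 were called higher and 2 lower. The mean of the PARVA probe sets gave a difference of -0.057 (adjusted p = 0.554), so no direction can be given for this gene.

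BCAR1 encodes p130Cas, the adaptor phosphorylated by focal adhesion kinase and Src. It read 7.01, 7.01 and 7.00 in the controls, 6.83, 6.89 and 7.04 with shBAP1 #1 and 7.33, 7.36 and 7.44 with shBAP1 #2. Only the shBAP1 #2 arrays lay apart, with a rise of 0.37 ± 0.07 (SE, adjusted p = 0.00219) that the mean with its dim second probe set did not keep (0.19, adjusted p = 0.0628). BCAR1 differed between the hairpins by 0.46 ± 0.07 (adjusted p = 0.000523), and by 0.24 with that mean (adjusted p = 0.0185).

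Among the actin linkers, ACTN4, a non-muscle alpha-actinin that crosslinks filaments, stood at 8.53, 8.48 and 8.74 in the controls, 8.78, 8.70 and 8.76 with shBAP1 #1 and 9.18, 9.11 and 9.10 with shBAP1 #2. ACTN4 rose by 0.55 ± 0.08 with shBAP1 #2 (SE, adjusted p = 0.000326) and gave 0.16 with shBAP1 #1 (adjusted p = 0.16). ZYX, which encodes zyxin, a sensor of tension on actin, rose by 0.35 ± 0.07 with shBAP1 #2 (adjusted p = 0.00192), and its second probe set by 0.52. For ACTN4 and ZYX alike the shBAP1 #2 arrays lay above all others, and the hairpins differed (0.38, adjusted p = 0.00273, and 0.27, adjusted p = 0.00801). ACTN1, the other non-muscle alpha-actinin, changed by 0.22 and -0.03 and was not called, though 1 of its 3 other probe sets was called higher with shBAP1 #1, at 0.32.

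TNS1, a second tensin, read 7.67, 7.40 and 7.45 in the controls, 6.54, 6.91 and 6.89 with shBAP1 #1 and 7.29, 7.29 and 7.13 with shBAP1 #2. Both shBAP1 groups lay below the controls, shBAP1 #1 the lower. TNS1 fell by 0.73 with shBAP1 #1 (SE 0.11, adjusted p = 0.000791), and the -0.27 with shBAP1 #2 did not pass (adjusted p = 0.0983). Of its 4 other probe sets, 3 were called lower with shBAP1 #2, at -0.87, -0.28 and -0.34, and none with shBAP1 #1. All 5 TNS1 probe sets had changes below 0 with both hairpins, but they placed the larger fall with different ones, and the difference of 0.46 (adjusted p = 0.00809) became -0.071 (adjusted p = 0.592) for the mean of the probe sets. That mean was still called lower with shBAP1 #1, at a smaller -0.33 (adjusted p = 0.0172).

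Over the whole set, 120 probe sets read the 41 members, and 32 members had more than 1. In 4 of them, PARVA, PTK2, TNS1 and TNS3, probe sets were called in opposite directions within a comparison. Probe sets of 1 gene can read different transcripts or lie in different parts of it, which was not tested. On the chosen probe set, 14 members were not called in any comparison: ITGA1, ITGA10, ITGA8, ITGA2B, ITGA9, ITGAL, ITGAM, ITGAD, ITGB3, ITGB4, ITGB7, TLN1, LIMS1 and ACTN1, of which 6 had a mean below 5.44.

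**Figure D4:**
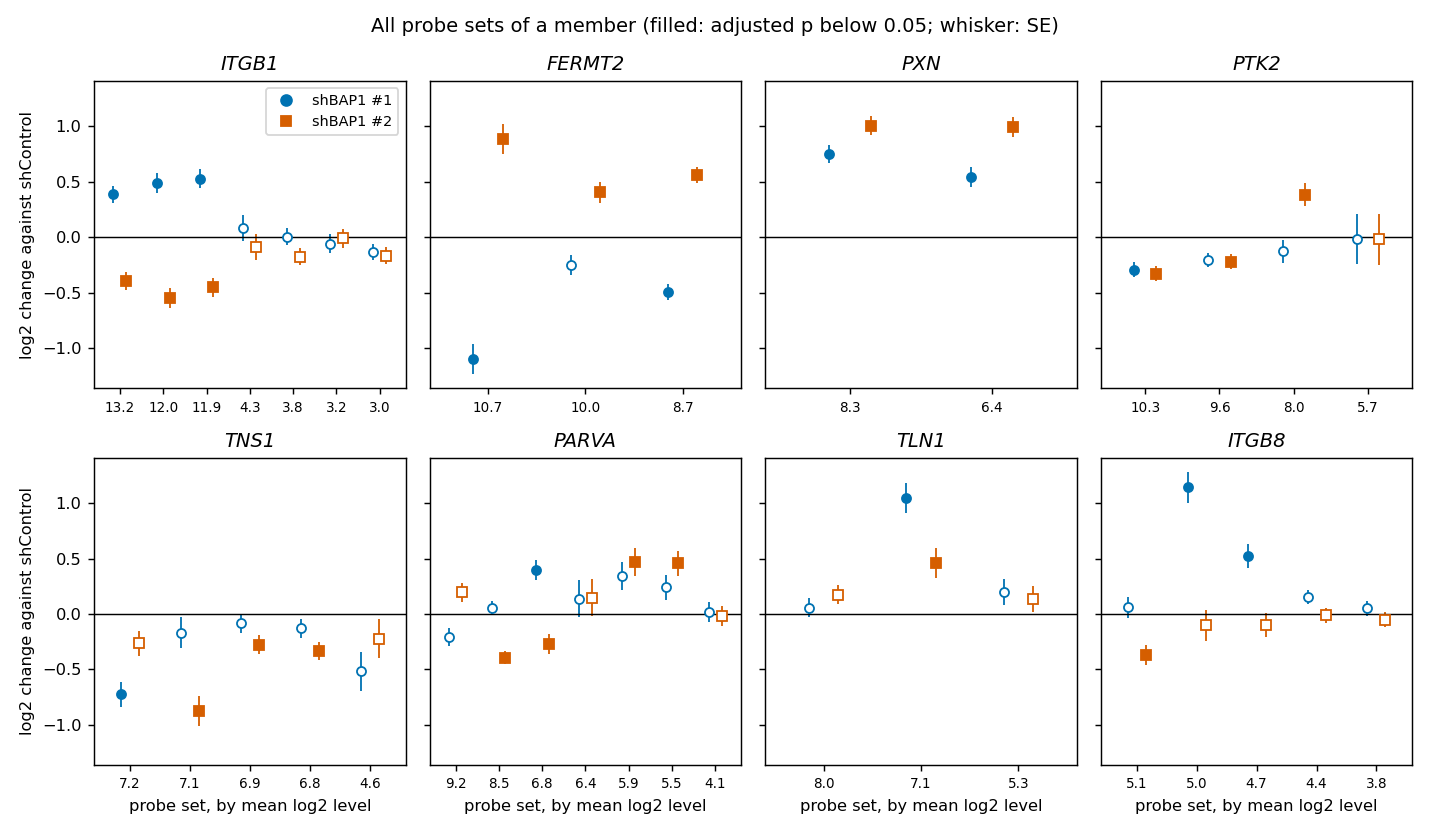
Log2 change against shControl (vertical axis) for every probe set of 8 members, ordered by mean log2 level (horizontal axis labels), blue circles for shBAP1 #1 and orange squares for shBAP1 #2; whiskers are the SE of the fit and filled symbols have an adjusted p below 0.05 over all 41097 probe sets with 1 symbol. The 3 brightest ITGB1 probe sets and all 3 of FERMT2 keep 1 pattern, whereas those of TNS1, PARVA and ITGB8 differ.

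Genes around the set were read from lists of integrin ligands, adhesion signalling, adhesion structure and integrin partners, and the genes named are those with the largest changes shared by both hairpins. COL1A1, COL1A2 and CDH1 are both ligand genes here and among the cell type markers above. Of 33 measured ligand genes, 13 rose and 5 fell with shBAP1 #1, 12 rose and 5 fell with shBAP1 #2, 8 rose and 2 fell with both, and 2 changed in opposite directions. The shares over all genes, for this list and the next ones, were 13% higher and 12.6% lower with shBAP1 #1, 16.9% and 16.5% with shBAP1 #2, 6.22% and 5.49% with both, and 3.44% in opposite directions. Among bright genes, those with a mean of 5.44 or more, they were 18.5% and 18.4%, 24% and 23.8%, 9.23% and 7.99%, and 5.12%. The list's median was 0.13 with shBAP1 #1 and 0.19 with shBAP1 #2. FN1, fibronectin itself, rose by 1.81 ± 0.07 with shBAP1 #1 (SE, n = 3, adjusted p = 3.89e-07) and by 0.25 ± 0.07 with shBAP1 #2 (adjusted p = 0.0117). FN1 arrays read 12.23, 12.25 and 12.19 with shBAP1 #1, 10.69, 10.69 and 10.62 with shBAP1 #2 and 10.51, 10.39 and 10.34 in the controls, so the ligand was highest with shBAP1 #1. Of its receptor chains, ITGB1 was called higher with that hairpin, and ITGA5, ITGAV and ITGA4 were not called. ITGA4 changed by -0.39 with it (adjusted p = 0.121), and the other RGD chains, ITGA8 and ITGA2B, by -0.15 and -0.09, not called. COL4A1, a basement membrane collagen, rose by 0.77 and 0.74, while NID1, the linker protein nidogen-1, fell by 0.81 and 0.67 (by 0.44 and 0.39 with the mean of its probe sets, still called).

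Of 29 adhesion signalling genes, 14 rose and 2 fell with shBAP1 #1, 11 rose and 2 fell with shBAP1 #2, 8 rose with both, none fell with both and 1 changed in opposite directions, with list medians of 0.14 and 0.14. RAP1A, a small GTPase that brings talin to integrins, rose by 0.73 and 0.96, the Src family kinase gene FYN by 0.30 and 1.16, and PTPN1, a tyrosine phosphatase gene, by 0.80 and 0.54. With the mean of their probe sets, PTPN1 rose by 0.23 and 0.26 and RAP1A by 0.39 and 0.58, still called, while FYN gave 0.096 (adjusted p = 0.408) and 0.63 (adjusted p = 0.000109). The RAP1A call with shBAP1 #1 was lost without shControl replicate 1 or 3 or shBAP1 #1 replicate 2 or 3 (adjusted p up to 0.07). The FYN call with shBAP1 #1 was lost without shControl replicate 1 or 2 or shBAP1 #1 replicate 2 or 3. Subtracting array medians lost it too, and without probe sets of shared-probe suffix FYN was called with neither hairpin.

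Of 29 further structural genes, 7 rose and 4 fell with shBAP1 #1, 13 rose and 2 fell with shBAP1 #2, 3 rose and 1 fell with both, and 2 changed in opposite directions, with list medians of 0.03 and 0.12. TNS2, another tensin, fell by 0.45 and 0.95, as TNS3 had fallen, and CSRP1, a LIM protein of actin filaments, rose by 0.29 and 0.98. Both calls with shBAP1 #1 were lost without shControl replicate 1 or 2 or shBAP1 #1 replicate 1 or 2 (adjusted p up to 0.0764 for TNS2 and 0.0769 for CSRP1). RSU1, which binds PINCH in the ILK complex, rose by 0.57 and 0.52, but the mean of its probe sets was not called with either hairpin (0.17, adjusted p = 0.0912, and 0.12, adjusted p = 0.186).

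Of 24 integrin partners and inhibitors, 6 rose and 3 fell with shBAP1 #1, 10 rose and 4 fell with shBAP1 #2, 5 rose with both, none fell with both and 1 changed in opposite directions, with list medians of 0.09 and 0.17. CD47, which associates with alpha V beta 3 and signals to macrophages, rose by 1.02 ± 0.09 (SE, n = 3, adjusted p = 2.71e-05) and 1.50 ± 0.09 (adjusted p = 3.91e-06). PLAUR, the urokinase receptor that binds vitronectin beside integrins, rose by 1.07 and 0.71, and SDC4, the heparan sulphate co-receptor of fibronectin at focal adhesions, by 1.03 and 0.68. For CD47, PLAUR and SDC4 all 6 shBAP1 arrays lay above the controls. Without probe sets of shared-probe suffix, the PLAUR change with shBAP1 #1 was 0.08 (adjusted p = 0.664) and that of CD47 0.36 (adjusted p = 0.0718). With the mean of its probe sets CD47 rose by 0.48 and 0.80, still called. The share raised by both hairpins was 24.2% of the ligands, 27.6% of signalling genes, 10.3% of structural genes and 20.8% of partners, against 6.22% of all genes and 9.23% of bright genes. The structural list thus lay near the share of bright genes. These shares are a description with no test, and the lists were chosen with earlier results of these data known.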

How the data were processed

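RNA of U2OS cells in 9 samples was labelled and hybridised to oligonucleotide arrays. The deposited values are log2 expression per probe set from RMA, per the submitters' processing notes; its version, the genome build and the chip definition are not given in the sources used here. Groups and replicate numbers came from the sample titles. Of 54675 probe sets, 41097 had 1 gene symbol in the platform annotation, 1801 had several and 11777 were not listed; of the 41097, 41043 matched the RefSeq gene table of GRCh38.p14 by gene identifier and 0 symbols needed an update. Each gene kept its probe set with the highest mean over the arrays.

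One model per gene (limma 3.58.1, R 4.3.3, lmFit and eBayes) was fitted over all 9 arrays and 3 groups, with no covariate, 6 residual and 4.33 prior degrees of freedom. Tests were two-sided, with p-values adjusted by Benjamini-Hochberg over the 19775 genes and a threshold of 0.05; "rose", "fell" and "called" refer to it. Probe sets of a member were compared in a second fit over all 41097. The script was tested on simulated data. Motifs were searched with Python 3.11.15 on both strands.

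Every member is named, in full where both hairpins were called and otherwise by role; of each list, up to 3 genes called alike with both hairpins and with the largest mean change are named. The members and lists were chosen with earlier results of these data known. The replicate numbers were checked for pairing by correlating deviations from the group means. Arrays of the same number gave -0.21 to 0.216 (mean 0.059, 4 of 9 pairs above 0.1). Arrays of different number gave -0.235 to 0.236 (mean -0.029, 4 of 18 pairs above 0.1). The ranges overlap, so the numbers were not taken to pair arrays, though pairing is not excluded. In addition to 17 alternatives planned (probe set choice, dim probe sets, normalization, spread, array weights, replicate block, groups in the fit, each array left out), 1 was chosen after seeing the data: leaving out probe sets with the suffixes _s_at, _x_at and _a_at.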

Additional observations from a re-analysis of the deposited data

Results flagged for a closer look

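For 4 members the hairpins gave changes called in opposite directions, and the difference between hairpins was called too (limma, adjusted over all genes). The difference, shBAP1 #2 minus shBAP1 #1, was 1.99 for FERMT2 (adjusted p = 4.49e-06), -0.78 for ITGB1 (adjusted p = 3.21e-05), -0.59 for ITGA3 (adjusted p = 0.000305) and 0.40 for ITGB5 (adjusted p = 0.000395), with 3 of 3 arrays of either hairpin showing its direction. Only FERMT2 kept both calls against the controls in every setting that measured it. With shBAP1 #1 and #2 in turn, ITGB5 lost its call in 13 and 4 of 18 settings and ITGA3 in 3 and 6 of 17. ITGB1 lost each in 1 of 18. The PARVA arrays were ordered like those of FERMT2 and its difference was called (0.40, adjusted p = 0.00315), but neither change against the controls was called, and its probe sets went different ways.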

How the results depend on the processing

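Of 52 calls of members, 31 passed in each of 18 other settings in which the gene was measured: 5 of 11 with shBAP1 #1, 13 of 21 with shBAP1 #2 and 13 of 20 between the hairpins. Members higher with shBAP1 #1 (5) became 8 with the mean of all probe sets and 8 with array weights. Members higher with both (2) became 4 with the mean of all probe sets, 4 without dim probe sets, 4 with a trended eBayes and 5 with array weights. Members with opposite directions (4) became 2 with only the 2 groups compared in the fit. Leaving out shared-probe suffixes, chosen after seeing the data, left 3 higher and 3 lower with shBAP1 #1 and 0 with opposite directions. Among called members, FERMT2, ITGA3, VCL, ITGB2 and ZYX have only such probe sets and were not measured there. Part of the drop in these counts is thus genes left out, not calls that failed. FERMT2 kept both calls in the other 17 settings. With the replicate number as a block, 5 were higher with both; the arrays share only a number. Leaving out 1 array at a time gave 3 to 7 higher and 4 to 7 lower with shBAP1 #1, 13 to 15 and 5 to 8 with shBAP1 #2, 14 to 16 and 4 to 6 between hairpins, 2 to 5 and 2 to 3 with both, and 2 to 4 opposite. Directions turned, shBAP1 #2 against shBAP1 #1, with the mean of probe sets for PARVA (-0.057), TNS1 (-0.071) and PTPN1 (0.030), and without shared-probe suffixes for ITGB1 (0.047) and PLAUR (0.62). Without those suffixes, directions with shBAP1 #1 turned for ITGB1 (-0.057), FYN (-0.14) and RSU1 (-0.032). Another probe set is then read; otherwise the cause was not tested. Small changes of dim probe sets are limited by background, and 8 of 41 members lay below the median of all probe sets.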
